A study of Homo sapiens with 4 samples.

Results

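The comparison set PC14 cells sorted as E-cadherin high and CD133 high against PC14 cells sorted as E-cadherin low and CD133 low. It used 2 of the 4 arrays of the series, 1 for each population, and the other 2 arrays served to place each gene. PC14 is a line of human lung cancer cells of the non-small-cell kind. All 4 populations came from this line: cells were sorted by fluorescence for E-cadherin first, and then by a lentiviral reporter of CD133, green fluorescent protein under the gene's P1 promoter, so that CD133 high or low here means reporter brightness. The population high for both is called double-high below, the one low for both double-low, the E-cadherin-high CD133-low one E-only and the E-cadherin-low CD133-high one CD133-only. No treatment or time is given for any population in the sources used here. Because both sorted markers differ between the double-high and double-low arrays, the question was which of the different genes went with E-cadherin, which with CD133 and which with neither.

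E-cadherin, encoded by CDH1, joins neighbouring epithelial cells at adherens junctions and is lost when carcinoma cells pass into a mesenchymal state, a passage driven by transcription factors such as ZEB1 and SNAI1 that bind E-box motifs and repress epithelial genes. CD133, encoded by PROM1, is a membrane protein of cell protrusions that is widely used to sort stem-like cells from carcinomas, lung cancer included. Stem-like properties have often been tied to the mesenchymal state, so the E-cadherin-high CD133-high and E-cadherin-low CD133-low combinations are the ones that go against that pairing.

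The values are the deposited signals, linear and scaled to a common mean on each array. The signal of the median probe set, 53.7 to 60.3 over the 4 arrays, was taken as the floor. Of 19775 named genes 14083 exceeded it on 1 array or more and are called measured. Between 12309 and 12459 named genes lay above the floor of any 1 array. With 1 array per population no difference below has a replicate check, the number of arrays limits the precision, and fewer cells expressing a gene and less RNA of it per cell cannot be told apart in sorted bulk RNA. A ratio in which 1 array lay at the floor is a bound, written "at least" for a fold and named as a bound for a log2 ratio. The ratios of 3' to 5' probe sets lay between 1.53 and 1.78 for ACTB and between 0.898 and 1.02 for GAPDH. The probe set nearest the 5' end of 18S ribosomal RNA read 13204 on the double-high, 14297 on the E-only, 8619 on the CD133-only and 7226 on the double-low array, so that it moved with the comparison, and its part in the results was not tested.

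The sorted markers checked the labels only for E-cadherin. CDH1 read 5548 on the double-high, 3546 on the E-only, 347 on the CD133-only and 528 on the double-low array, which was 10.5-fold higher in double-high than in double-low cells. The other CDH1 probe set read 55.0 on the double-high and 4.69 on the double-low array, just above the floor on the first and far below it on the second. PROM1 read 12.1 on the double-high, 29.7 on the E-only, 10.3 on the CD133-only and 4.79 on the double-low array, below the floor everywhere, so this probe set does not show the CD133 sort. Of 7 epithelial markers 4 lay above the floor on the double-high array and the same number on the double-low array, while KRT19, CLDN7 and ESRP1, an epithelial keratin, a tight junction claudin and an epithelial splicing factor, were below it on all 4. The epithelial markers summed to 29535 on the double-high and 15182 on the double-low array. EPCAM, an epithelial adhesion protein, read 12326 on the double-high and 3760.4 on the double-low array. KRT18, an epithelial keratin, read 10295 on the double-high and 10434 on the double-low array, the same within 1.01-fold. Of the mesenchymal markers, ZEB1 was 6.28-fold lower, but VIM, the mesenchymal intermediate filament vimentin, read 12448 on the double-high and 12938 on the double-low array. CDH2 and SNAI2, the neuronal cadherin and the repressor Slug, were below the floor on all 4 arrays, and FN1, fibronectin, read 91.5 on the double-high, 94.8 on the E-only, 69.3 on the CD133-only and 42.6 on the double-low array. The double-high and double-low populations thus differed as the sort names them in CDH1 and ZEB1, but by only 1.04-fold in vimentin, so they are called by the sorted markers and not epithelial or mesenchymal below.

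In double-high cells 917 of the 14083 measured genes were at least 2-fold higher (6.51%) and 510 were at least 2-fold lower (3.62%) than in double-low cells. The remaining 12656 genes differed by less than 2-fold. At least 4-fold, 174 genes were higher and 105 lower, and at least 8-fold 49 were higher and 37 lower. The ratio was a bound for 161 of the 917 and 115 of the 510. The median log2 ratio over all measured genes was 0.00. The 35 measured ribosomal protein genes had log2 ratios between -0.12 and 0.14 and the 13 housekeeping genes between -0.25 and 0.25. None of either list passed 2-fold in this comparison. The mixed arrays were less level. The median log2 ratio of the ribosomal protein genes was 0.47 for E-only over CD133-only and -0.27 for double-high over E-only. For the housekeeping genes the E-only over CD133-only median was 0.17. The only test was an additive limma fit over the 4 arrays, which takes the effects of the 2 markers to add up and has 1 residual degree of freedom. It called 1 gene higher (EDIL3, adjusted p = 0.0344) and 1 lower (GATA3, adjusted p = 0.0458) after Benjamini-Hochberg adjustment, and 978 higher and 577 lower at an unadjusted p under 0.05.

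The gene with the highest ratio was EDIL3, which encodes a secreted protein that binds integrins. EDIL3 read 7185 on the double-high, 45.3 on the E-only, 9271 on the CD133-only and 33.9 on the double-low array. It was at least 126-fold higher in double-high cells, and it was below the floor on both CD133-low arrays. TOX, a nuclear protein with a DNA-binding HMG box, read 2899 on the double-high, 89.6 on the E-only, 735 on the CD133-only and 27.6 on the double-low array. LGALS1, galectin-1, a secreted lectin that binds sugars on the cell surface, read 15831 on the double-high, 1764 on the E-only, 18772 on the CD133-only and 584 on the double-low array. S100A4, a calcium-binding protein of motile cells, read 5129 on the double-high, 286 on the E-only, 5970.0 on the CD133-only and 196 on the double-low array. All 4 were bright on both CD133-high arrays. LMO7, an adaptor of adherens junctions, behaved differently, with 2109 on the double-high, 546 on the E-only, 450.0 on the CD133-only and 80.4 on the double-low array. ADGRL2, the adhesion receptor latrophilin-2, read 2529.6 on the double-high, 805 on the E-only, 486 on the CD133-only and 96.7 on the double-low array, and LGR4, a receptor for R-spondins that strengthens Wnt signalling, read 3813 on the double-high, 1049 on the E-only, 774 on the CD133-only and 194 on the double-low array. For these 3 genes the double-high array was the brightest and the double-low array the dimmest, with both mixed populations between them. The other genes among the 12 highest were ARHGAP18, KLHL41, SERPINI1, ZIC1 and PRDM16, at least 17.8-fold higher to 22.6-fold higher. ZIC1 and PRDM16, transcription factors of development, each had another, dimmer probe set that pointed the other way, with log2 ratios of -0.40, a bound, and -0.89.

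The gene with the lowest ratio was FABP7, the brain fatty acid-binding protein found in neural progenitors. FABP7 read 37.5 on the double-high, 377 on the E-only, 28.9 on the CD133-only and 7086 on the double-low array. It was at least 132-fold lower in double-high cells and lay above the floor on both CD133-low arrays, far brighter on the double-low than on the E-only array. SOX2, a transcription factor of pluripotent cells and of airway basal cells, read 88.3 on the double-high, 3021 on the E-only, 5006 on the CD133-only and 4262 on the double-low array. Only the double-high array was dim, and a second SOX2 probe set moved the same way by more than 2-fold. GATA3, a lineage transcription factor of breast and lymphoid cells, read 73.7 on the double-high, 1469.7 on the E-only, 154 on the CD133-only and 3523 on the double-low array, 47.8-fold lower in double-high cells. MAP2, which binds neuronal microtubules, read 119 on the double-high, 135 on the E-only, 1886 on the CD133-only and 3178 on the double-low array, so that it was bright in both E-cadherin-low populations. MCOLN3, an endolysosomal cation channel, read 91.4 on the double-high, 1890.2 on the E-only, 28.4 on the CD133-only and 3791 on the double-low array, and was dim in both CD133-high populations. The 12 lowest also held HOXB6, ID3, SYDE2, SP8, HOXB7, PALMD and SMAD9, 16.2-fold lower to 29.1-fold lower.

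**Figure D1:**
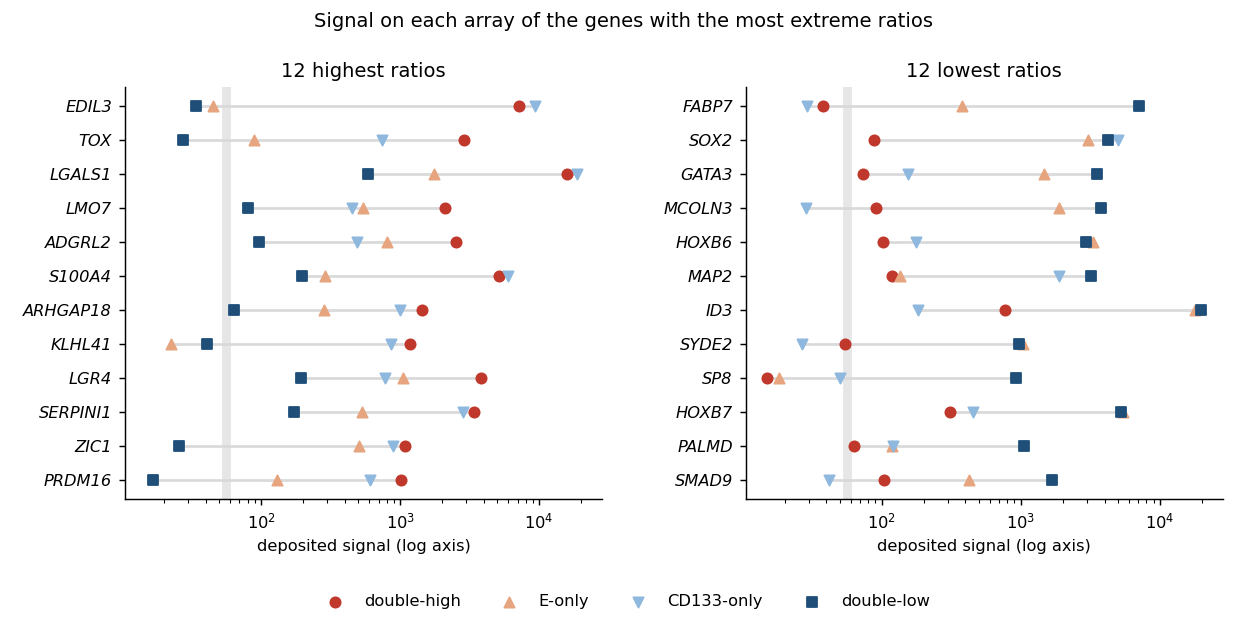
Signals of the 12 genes with the highest and the 12 with the lowest double-high over double-low ratio on each of the 4 arrays, 1 point per array, on a log axis. EDIL3 read 7185 on the double-high and 33.9 on the double-low array, FABP7 read 37.5 and 7086 on the same arrays, and the E-only and CD133-only points show which marker each gene went with.

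Each of the 1427 genes past 2-fold (10.1% of the measured genes) was placed by the 4 pairs of arrays that differ in a single marker. A gene followed a marker if it moved at least 2-fold in the direction of the double-high over double-low ratio in both pairs that differ in that marker and not in both pairs of the other. By this rule 91 genes followed E-cadherin, 49 higher, with the sorted marker CDH1 among them, and 42 lower. The number that followed CD133 was 414, with 282 higher and 132 lower. Both markers were followed by 19 genes, 14 higher and 5 lower. Another 98 genes (41 higher, 57 lower) stood apart on the double-high array, at least 2-fold from both mixed arrays, and 156 (110 higher, 46 lower) stood apart in the same way on the double-low array. The other 649 (45.5%) met none of these rules. The pairs share the double-high and double-low arrays with the comparison that chose the genes, so these counts are descriptions. In CD133-high cells the E-cadherin pair agreed in direction past 2-fold for 144 of the 917 higher and 133 of the 510 lower genes (2.53% higher and 3.81% lower over all measured genes), and in CD133-low cells for 247 and 128 (2.87% and 2.63%). The CD133 pair did so for 397 and 239 in E-cadherin-high cells (5.04% and 3.24%) and for 583 and 251 in E-cadherin-low cells (8.11% and 4.27%). Over all measured genes, 0.54% were higher and 0.476% lower in both E-cadherin pairs, and 2.45% were higher and 1.12% lower in both CD133 pairs.

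The E-only and CD133-only arrays give a view that shares no array with the comparison. A gene with both ratios past 2-fold the same way was put on the E-cadherin side, and one with both past 2-fold in opposite ways on the CD133 side. Over all measured genes the E-only over CD133-only ratio was at least 2-fold up for 623 (4.42%) and at least 2-fold down for 1113 (7.9%). Among the 917 genes higher in double-high cells it was down for 321 (35%), the CD133 side, and up for 47 (5.13%), the E-cadherin side. Among the 510 lower genes it was up for 146 (28.6%), the CD133 side, and down for 49 (9.61%), the E-cadherin side. For 549 of the higher and 315 of the lower genes it was under 2-fold. The shares on the E-cadherin side were close to those of all measured genes, and those on the CD133 side were well above them. Among the 10891 genes above the floor on all 4 arrays, the CD133 side held 234 of 726 higher and 114 of 371 lower genes, and the E-cadherin side 36 and 33.

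**Figure D2:**
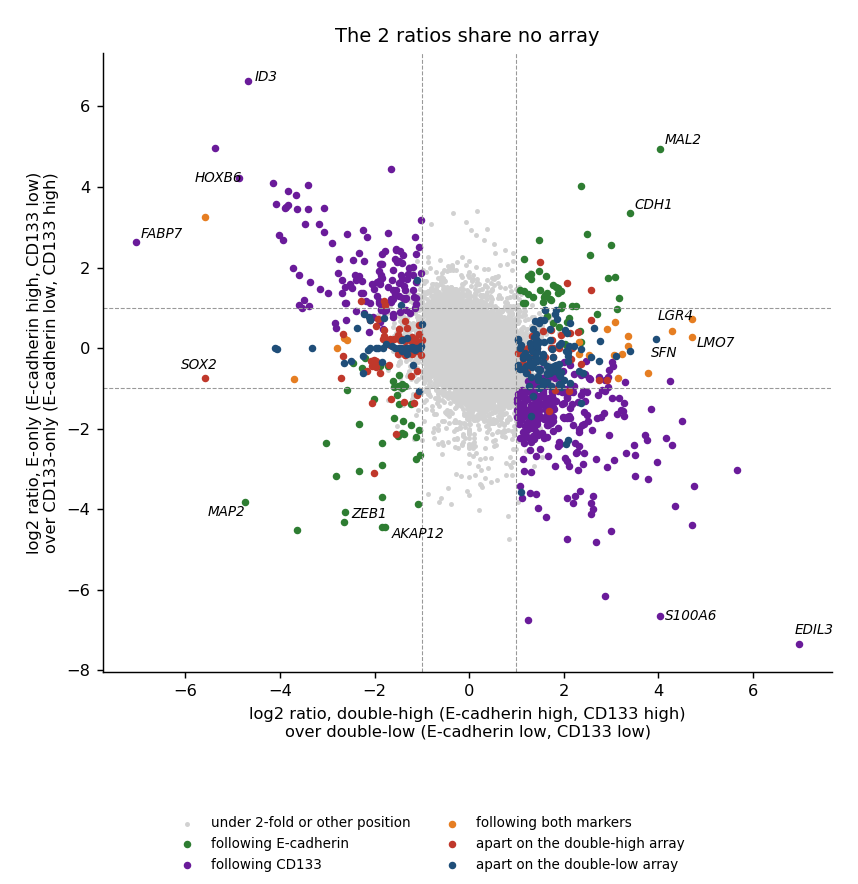
Log2 ratio of the double-high over the double-low array (horizontal) against log2 ratio of the E-only over the CD133-only array (vertical) for the 14083 measured genes, 1 point per gene, coloured by the marker followed (grey, under 2-fold or no rule met), with dashed lines at 2-fold. Genes of the CD133 side fill the upper left and lower right corners (146 and 321 genes), and genes of the E-cadherin side the upper right and lower left (47 and 49).

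Genes that followed E-cadherin included DSP, DSG2 and DSC2, 3 genes of desmosomes, the junctions that tie keratin filaments of neighbouring cells together. DSP, desmoplakin, which links desmosomes to keratin, read 3656 on the double-high, 8212 on the E-only, 505 on the CD133-only and 705 on the double-low array. DSG2 and DSC2, desmosomal cadherins named after their values were seen, were 7.69-fold higher and 5.84-fold higher in double-high cells. Desmosome genes did not move as a group: of the others in the list of epithelial junctions, JUP and PPL were at least 2-fold higher but followed neither marker, and PKP2, PKP3 and EVPL were under 2-fold, with log2 ratios of 0.09, 0.80 and -0.09, the last a bound. These 5 were chosen after their values were seen. MAL2, a membrane protein of apical transport in epithelia, read 10869.5 on the double-high, 8772 on the E-only, 283 on the CD133-only and 664 on the double-low array. EPHA1, an ephrin receptor of epithelia, read 454 on the double-high, 358 on the E-only, 42 on the CD133-only and 13.1 on the double-low array. For these genes both E-cadherin-high arrays lay above both E-cadherin-low arrays. TC2N and PRSS12, a protein with C2 domains and a secreted serine protease, were 5.63-fold higher and 9.02-fold higher.

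Promoters of higher genes that followed E-cadherin are shown because a short motif was common in this set. The motif CACCTG, which is CAGGTG on the other strand, is the E-box known to be bound by ZEB and SNAI repressors, and it was chosen after the values were seen. In the RefSeq promoters (GRCh38.p14, 250 bases before to 50 after the start) it was found on either strand in 20 of the 38 such genes, out of 49, that had an entry (52.6%). It was found in 2119 of the 11331 measured genes with an entry (18.7%) and in 5625 of all 27305 promoters (20.6%). Of the 38 lower genes that followed E-cadherin with an entry 7 held it (18.4%), as did 50 of 210 higher (23.8%) and 16 of 98 lower (16.3%) genes that followed CD133. With any listed start of the gene counted, the shares were 55.3% for the higher genes that followed E-cadherin and 24.2% for the measured genes. The related hexamer CAGCTG was found in 15.8% of the first and 17.1% of the second. Median GC content was 67.5% and 65% in the same sets. A match is a description of the letters and not of binding. The promoters of TC2N and PRSS12 did not hold it. Those of DSP, DSG2, DSC2 and EPHA1, picked among the promoters that do, follow with the motif in capitals.
DSP, chr6:7541421-7541720 (+ strand): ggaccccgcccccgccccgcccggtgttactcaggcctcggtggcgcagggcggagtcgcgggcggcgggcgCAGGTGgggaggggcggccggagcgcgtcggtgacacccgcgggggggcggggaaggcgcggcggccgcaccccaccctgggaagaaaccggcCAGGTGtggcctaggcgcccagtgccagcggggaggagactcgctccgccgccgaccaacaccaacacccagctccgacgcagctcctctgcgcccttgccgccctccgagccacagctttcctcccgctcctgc
DSG2, chr18:31497927-31498226 (+ strand): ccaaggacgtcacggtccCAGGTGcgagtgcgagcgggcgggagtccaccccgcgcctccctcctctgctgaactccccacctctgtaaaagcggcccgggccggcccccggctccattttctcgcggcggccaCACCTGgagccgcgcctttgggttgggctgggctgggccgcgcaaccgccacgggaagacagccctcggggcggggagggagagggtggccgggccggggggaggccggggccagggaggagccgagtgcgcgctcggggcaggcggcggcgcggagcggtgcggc
DSC2, chr18:31102372-31102671 (- strand): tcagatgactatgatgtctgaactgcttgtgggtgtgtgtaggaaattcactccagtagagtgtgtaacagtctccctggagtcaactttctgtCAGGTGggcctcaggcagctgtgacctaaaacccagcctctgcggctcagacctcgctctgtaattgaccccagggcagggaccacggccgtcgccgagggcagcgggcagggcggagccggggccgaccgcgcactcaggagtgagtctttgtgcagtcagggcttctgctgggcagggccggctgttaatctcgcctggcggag
EPHA1, chr7:143408807-143409106 (- strand): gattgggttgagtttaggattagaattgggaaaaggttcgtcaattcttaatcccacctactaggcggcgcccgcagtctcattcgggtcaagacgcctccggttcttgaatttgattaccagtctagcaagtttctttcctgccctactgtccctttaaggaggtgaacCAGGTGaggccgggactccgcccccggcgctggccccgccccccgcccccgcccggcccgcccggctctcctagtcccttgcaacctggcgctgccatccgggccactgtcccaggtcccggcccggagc

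Of 41 measured genes of epithelial junctions and adhesion 16 were higher in double-high cells (39.0%) and 0 were lower, with a median log2 ratio of 0.58. The shares of all measured genes, for this and the next 2 lists, were 6.51% higher and 3.62% lower. By class, 7 of the 16 followed E-cadherin, 1 followed CD133, 1 followed both and 7 did not follow either. The 16 and the 7 that followed E-cadherin include CDH1, whose place was set by the sort. The gene that followed both was MUC1, the membrane mucin of glandular epithelia, with 2481 on the double-high, 1168 on the E-only, 949 on the CD133-only and 241 on the double-low array. JUP, plakoglobin, a catenin of desmosomes and adherens junctions, named after its values were seen, read 2132 on the double-high, 1743 on the E-only, 1266 on the CD133-only and 522 on the double-low array, where only the double-low array was apart. The list was not uniform: ELF3 and GRHL2, transcription factors of epithelial genes, had log2 ratios of -0.81 and -0.63, both bounds. Of 5 measured keratins 1 was higher, KRT8, with 1334 on the double-high, 1493 on the E-only, 1081 on the CD133-only and 406 on the double-low array, and 6 other keratins of the list were below the floor. Of 11 hemidesmosome and basement membrane genes 3 were higher (27.3%) and 2 lower (18.2%). ITGB4, the integrin of hemidesmosomes, followed E-cadherin and was 4.18-fold higher, though its other probe sets did not reach 2-fold. Another ITGB4 probe set pointed the other way, with 41.3 on the double-high and 74.3 on the double-low array, a log2 ratio of -0.47, a bound. COL4A1 and COL4A2, the paired chains of basement membrane collagen IV, were 3.5-fold lower and 3.94-fold lower, and both stood apart on the double-high array.

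Among the genes that followed E-cadherin and were lower in double-high cells, ZEB1 read 168 on the double-high, 64.8 on the E-only, 1301 on the CD133-only and 1056 on the double-low array. POSTN, periostin, a matrix protein, read 158 on the double-high, 73 on the E-only, 1219.8 on the CD133-only and 970.4 on the double-low array. AKAP12, a scaffold of protein kinase A, read 835 on the double-high, 339.8 on the E-only, 7427 on the CD133-only and 2980.2 on the double-low array, and 2 of its 3 other probe sets moved the same way by at least 2-fold. EMP1, a membrane protein of the claudin-related family, and COL11A1, a fibrillar collagen, were 3.44-fold lower and 3.61-fold lower. In all 5 the E-only array was the dimmest and the CD133-only array the brightest, so the E-only over CD133-only ratio was larger than the double-high over double-low ratio. RSPO3, a secreted Wnt amplifier, was at least 8.2-fold lower, and EFNB2, a membrane-bound ephrin ligand, 3.59-fold lower.

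The mesenchymal list did not move as 1 group. Of 28 measured members 6 were higher (21.4%) and 2 lower (7.14%) in double-high cells, with a median log2 ratio of 0.34. Over all measured genes the shares were 6.51% and 3.62%. The 2 lower members, ZEB1 and POSTN, followed E-cadherin, and 5 of the 6 higher ones followed CD133. These 5 were LGALS1, S100A4, FBN2, LUM and DCN. FBN2, a microfibril protein, read 938 on the double-high, 64.1 on the E-only, 1808 on the CD133-only and 147 on the double-low array. The other higher member, CAV1, which coats caveolae and was named after its values were seen, read 5641 on the double-high, 5681 on the E-only, 2771 on the CD133-only and 1248 on the double-low array, and followed E-cadherin. Of 11 measured factors known to drive the mesenchymal passage, SOX9 and TCF3 were higher and ZEB1 lower. SNAI1 had a log2 ratio of 0.27, a bound, and TWIST1 of 0.59. TCF3 rested on a bright probe set. Of its 12 other probe sets above the floor, 11 had floored log2 ratios below 0, between -0.71 and -0.02, and none reached 2-fold. Among the 11 was a dim probe set with 56.0 on the double-high and 7.22 on the double-low array. Its sign came only from the unequal floors of these arrays.

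Of 9 measured markers of other cell types 3 were higher (33.3%) and 0 lower in double-high cells: LUM, DCN and PTPRC. The shares of all measured genes were 6.51% and 3.62%. The other 6, COL1A1, COL1A2, COL3A1, CD3E, PECAM1 and HBB, were under 2-fold. Of these, the endothelial marker PECAM1 and the erythroid marker HBB were above the floor on all 4 arrays, with log2 ratios of -0.38 and -0.45. Of 7 fibroblast markers 5 lay above the floor on the double-high and 3 on the double-low array, with summed signals of 32224 on the double-high, 24749 on the E-only, 23921 on the CD133-only and 17799 on the double-low array. COL3A1, a fibrillar collagen, made up most of these sums, with 29221 on the double-high and 15938 on the double-low array. LUM, a matrix proteoglycan, read 626 on the double-high, 228 on the E-only, 1390.1 on the CD133-only and 131 on the double-low array. PDGFRA and PDGFRB, receptors of fibroblasts and pericytes, were below the floor on all 4 arrays. PTPRC, the leukocyte antigen CD45, read 1246 on the double-high, 346 on the E-only, 1102 on the CD133-only and 505 on the double-low array, while CD14 and LYZ, markers of myeloid cells, were below the floor on every array. The endothelial markers summed to 177 on the double-high and 218 on the double-low array, with VWF, CDH5 and KDR below the floor on all 4. The part of such markers in the results was not tested.

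HOX genes, transcription factors that set position along the body axis and lie in 4 clusters, were, of the 28 lists, the one with the largest share of different members. Of 25 measured members 19 were lower in double-high cells (76.0%) and 0 higher, with a median log2 ratio of -1.87, against 3.62% lower over all measured genes. Of the 19, 14 followed CD133, 1 followed E-cadherin, 2 stood apart on the double-high array and 2 met no rule. HOXB6 read 102 on the double-high, 3319 on the E-only, 177 on the CD133-only and 2959 on the double-low array. HOXB7 read 310.0 on the double-high, 5469 on the E-only, 456 on the CD133-only and 5263 on the double-low array, and HOXA2 read 3.04 on the double-high, 686 on the E-only, 23.1 on the CD133-only and 790.3 on the double-low array. In each the CD133-low arrays were close to each other and far above both CD133-high arrays. HOXD4 was different, with 68.2 on the double-high, 293 on the E-only, 230.0 on the CD133-only and 434 on the double-low array, so that only the double-high array was dim. The summed HOX signal was 8766 on the double-high, 39453 on the E-only, 12499 on the CD133-only and 41878 on the double-low array.

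Members of the ID and BMP list were lower as well. BMP ligands signal through SMAD1, SMAD5 and SMAD9, and the ID genes, which encode inhibitors of helix-loop-helix transcription factors, are their well-known targets. Of 23 measured members 12 were lower (52.2%) and 0 higher in double-high cells, with a median log2 ratio of -1.11. Over all measured genes 3.62% were lower and 6.51% higher. ID3 read 771 on the double-high, 17878 on the E-only, 181 on the CD133-only and 19862 on the double-low array. ID2 read 1159.6 on the double-high, 8892 on the E-only, 636 on the CD133-only and 14619.6 on the double-low array. ID1 read 9339 on the double-high, 17411 on the E-only, 13431 on the CD133-only and 26146 on the double-low array, which was 2.8-fold lower. The mediator SMAD9 was 16.2-fold lower and SMAD1 3.7-fold lower, while SMAD5 had a log2 ratio of 0.01. The decoy receptor BAMBI read 55.9 on the double-high, 161 on the E-only, 81.1 on the CD133-only and 652 on the double-low array. The inhibitory SMAD6 was 5.53-fold lower, the antagonist NOG 4.14-fold lower and the ligand BMP7 2.15-fold lower. ID3, ID2, SMAD9, BAMBI and SMAD6 followed CD133, whereas NOG and SMAD1 stood apart on the double-high array. SMAD6, NOG, SMAD1, ID1 and BMP7 were named after their values were seen. Of 19 measured genes of the related TGF-beta pathway 1 was lower and 0 were higher. The share lower, 5.26%, was near that of all measured genes. The lower gene was SKIL, a co-repressor of SMAD proteins. SKIL read 569 on the double-high, 3325 on the E-only, 1164 on the CD133-only and 3493 on the double-low array.

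The list of S100 and galectin genes also held some annexins. Of its 19 measured members 5 were higher (26.3%) and 1 lower (5.26%) in double-high cells. Over all measured genes the shares were 6.51% and 3.62%. The 4 higher S100 and galectin genes, LGALS1, S100A4, S100A6 and S100A2, all followed CD133. The other higher member, the annexin gene ANXA10, followed E-cadherin. S100A6, a calcium-binding protein, read 941 on the double-high, 10.7 on the E-only, 5796 on the CD133-only and 32 on the double-low array, and was thus brighter on the CD133-only than on the double-high array. S100A2 read 626 on the double-high, 236 on the E-only, 1203 on the CD133-only and 132 on the double-low array. S100A10, the annexin A2 partner, went the other way and followed E-cadherin, with 261 on the double-high, 255 on the E-only, 1149 on the CD133-only and 742 on the double-low array. The 19 measured members had a median log2 ratio of 0.00.

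Both markers together were followed by 19 genes. CHRDL1, a secreted BMP antagonist, read 1299.8 on the double-high, 344 on the E-only, 331 on the CD133-only and 126 on the double-low array. SGMS2, a sphingomyelin synthase, read 6157 on the double-high, 1939.9 on the E-only, 2187 on the CD133-only and 743 on the double-low array. AGR3, a protein of the disulfide isomerase family, read 1343 on the double-high, 618 on the E-only, 443 on the CD133-only and 178 on the double-low array. On these genes the mixed arrays lay close together between the 2 extremes. Of the 5 lower genes, DKK1, a secreted Wnt inhibitor, read 375 on the double-high, 1353 on the E-only, 2289 on the CD133-only and 4879 on the double-low array. ANK2, a membrane-cytoskeleton adaptor, read 476 on the double-high, 1378 on the E-only, 1166 on the CD133-only and 2995 on the double-low array, and FZD1, a Wnt receptor, read 116 on the double-high, 282 on the E-only, 245 on the CD133-only and 692 on the double-low array. The others were LASP1NB, 6.92-fold lower, and GATA3.

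Some genes stood apart on a single extreme array. On the double-high array SOX2 had the lowest ratio among the 57 lower genes. NRG1, a ligand of ERBB receptors, read 32.6 on the double-high, 202 on the E-only, 232 on the CD133-only and 339.6 on the double-low array, where the double-high array was below the floor. Higher on the double-high array were FSTL5, L1CAM, EYA1, MSC-AS1, MAB21L2 and NTN4, at least 3.72-fold higher to at least 7.5-fold higher. Of these, FSTL5, L1CAM and EYA1 were above the floor on both CD133-high arrays and below it on both CD133-low arrays. They read 98.9, 99.7 and 74.9 on the CD133-only array, under 2-fold from the floor, so the floor decided their place. FOXA2 and FOXP2, forkhead factors of the airway, were at least 5.97-fold higher and 4.17-fold higher and also stood apart there. FOXA2 read 340 on the double-high, 97.4 on the E-only, 7.16 on the CD133-only and 17.0 on the double-low array. It was thus above the floor on both E-cadherin-high arrays only, and its place too was decided by the floor. On the double-low array SFN, the epithelial cell cycle inhibitor 14-3-3 sigma, read 16199 on the double-high, 10964 on the E-only, 9382 on the CD133-only and 1054 on the double-low array, dim on that array only. ERBB3, a receptor of neuregulins, read 2213 on the double-high, 1791 on the E-only, 2385 on the CD133-only and 623 on the double-low array. SP8, a zinc-finger factor of limb and brain development, read 15 on the double-high, 18.2 on the E-only, 49.8 on the CD133-only and 922 on the double-low array, and PALMD, palmdelphin, read 63.6 on the double-high, 119 on the E-only, 121 on the CD133-only and 1061 on the double-low array. MAGEC2, MAGEC1, DPPA2 and ZFP42, genes of germ cells and pluripotent cells, were brightest on the double-low array, at least 4.31-fold lower to at least 10.03-fold lower in double-high cells.

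In 13 of the 14083 measured genes (0.0923%) the markers cancelled, with both E-cadherin pairs past 2-fold one way and both CD133 pairs past 2-fold the other way. Of these, 11 were higher with high CD133 and lower with high E-cadherin. AXL, a receptor tyrosine kinase of mesenchymal carcinoma cells, read 271 on the double-high, 54 on the E-only, 1518 on the CD133-only and 151 on the double-low array. NAP1L3, a histone chaperone-like protein, read 1803 on the double-high, 344 on the E-only, 6192 on the CD133-only and 1021 on the double-low array, and TLE4, a co-repressor, read 541 on the double-high, 113 on the E-only, 1193 on the CD133-only and 458 on the double-low array. Their double-high over double-low log2 ratios were 0.84, 0.82 and 0.24, although their E-only over CD133-only log2 ratios, the first of them a bound, were -4.72, -4.17 and -3.40. VIM did not meet the rule, but it too was dim on the E-only array alone, with 12448 on the double-high, 1740.2 on the E-only, 20200.2 on the CD133-only and 12938 on the double-low array.

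**Figure D3:**
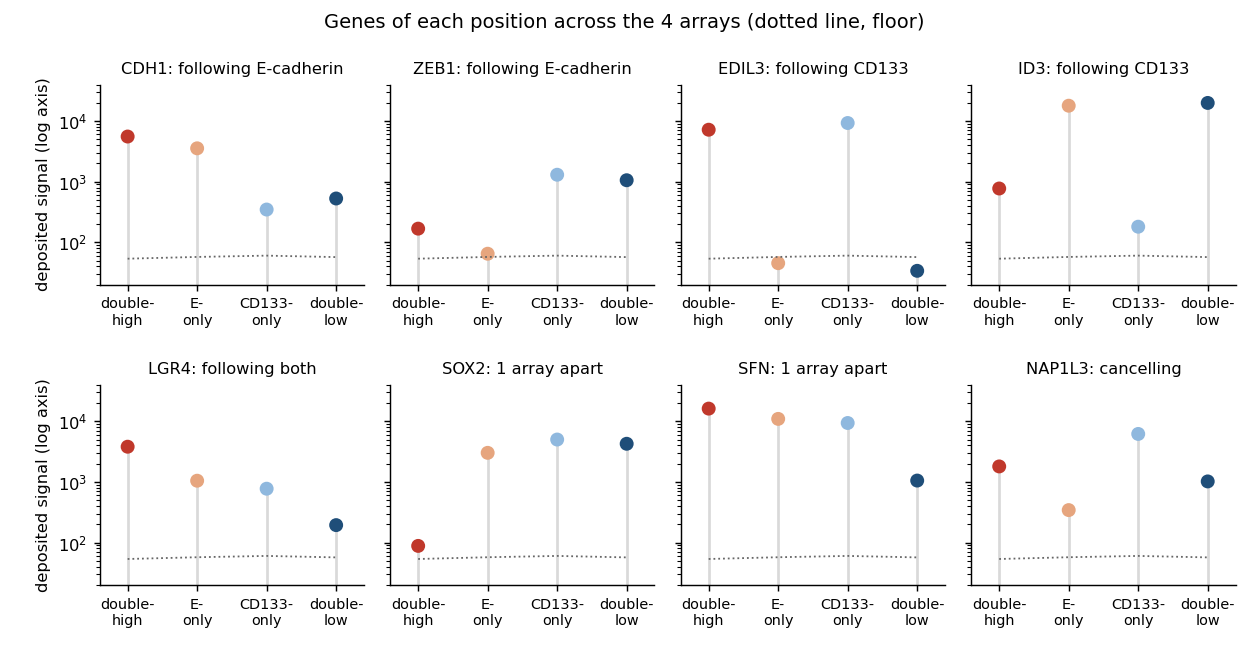
Signals of 8 genes on the 4 arrays, 1 point per array, on a log axis, with the dotted line at the floor of each array. CDH1 and ZEB1 split by E-cadherin, EDIL3 and ID3 by CD133, LGR4 steps down from the double-high to the double-low array, SOX2 (88.3) and SFN (1054) each have 1 dim array, and NAP1L3 is brightest on the CD133-only (6192) and dimmest on the E-only array (344).

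Lipid and cholesterol synthesis was, of the 28 lists, the one with the largest share of members higher. Of 25 measured members 13 were higher (52.0%) and 0 lower, 24 had a log2 ratio above 0, and the median was 1.12. Over all measured genes 6.51% were higher. HMGCS1, which makes the precursor of mevalonate, read 5291 on the double-high, 1544 on the E-only, 5778 on the CD133-only and 1012 on the double-low array. ACSS2, which makes acetyl-CoA from acetate, read 1589 on the double-high, 501 on the E-only, 1124 on the CD133-only and 239.9 on the double-low array. MSMO1 and SQLE, enzymes of the later sterol steps, and INSIG1, a sterol sensor, were 3.41-fold higher, 3.18-fold higher and 3.34-fold higher; these 3 were named after their values were seen. Of the 13, 7 followed CD133, 1 followed both markers and 0 followed E-cadherin. MVD, which forms isopentenyl diphosphate, was the one that followed both. The exception was SREBF2, the transcription factor of this pathway, with a log2 ratio of -0.37, and FASN and SCD, of fatty acid synthesis, were at 0.50 and 0.29.

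Genes of antigen presentation were higher in part. Of 18 measured members 6 were higher (33.3%) and 0 lower, against 6.51% and 3.62% over all measured genes. A log2 ratio above 0 was seen for 17 members, and the median was 0.57. Of the 6, 5 were chains of class II molecules, which present peptides to helper T cells, or their partners: HLA-DPA1, HLA-DRB1, CD74, HLA-DMA and, named after its values were seen, HLA-DQB1. HLA-DPA1 read 318 on the double-high, 159 on the E-only, 197 on the CD133-only and 57.5 on the double-low array, HLA-DMA read 882 on the double-high, 586 on the E-only, 813 on the CD133-only and 265 on the double-low array, and HLA-DRB1 read 905 on the double-high, 484 on the E-only, 378 on the CD133-only and 320.2 on the double-low array. The class I genes HLA-B and HLA-C had log2 ratios of 0.41 and 0.14, and B2M, their shared light chain, of -0.01. HLA genes are closely alike in sequence, and their probe sets can take up each other's RNA. Of 20 interferon response genes 6 were higher and 0 lower with a median of 0.00, USP18 at the top with 627 on the double-high, 309.7 on the E-only, 455 on the CD133-only and 158 on the double-low array.

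Genes of drug transport and detoxification were higher in 6 (25%) and lower in 1 (4.17%) of 24 measured members. The shares of all measured genes, for each list of this paragraph, were 6.51% higher and 3.62% lower. The share of drug transport and detoxification genes lower was thus near that of all measured genes. GSTM3, a glutathione transferase, read 1466 on the double-high, 334 on the E-only, 949 on the CD133-only and 102 on the double-low array, and CYP1B1, a cytochrome P450, read 714 on the double-high, 194 on the E-only, 1315 on the CD133-only and 111 on the double-low array. Both followed CD133. SLC7A11, the cystine importer, followed E-cadherin with 9635 on the double-high, 8504 on the E-only, 3633 on the CD133-only and 2940.3 on the double-low array. Of 16 measured stem-like cell markers 3 were higher (LGR4, EPCAM and ALDH1A3) and 1 lower (SOX2), with a median log2 ratio of 0.07. ALDH1A3, an aldehyde dehydrogenase, was 2.19-fold higher, while ALDH1A1 had a log2 ratio of -0.08. Among 17 lung and epithelial lineage factors 3 were higher (FOXA2, FOXP2 and NKX2-1) and 3 lower (SOX2, GATA3 and GATA2). GATA2 read 429.5 on the double-high, 1330.2 on the E-only, 513 on the CD133-only and 2788 on the double-low array. NKX2-1, the lineage factor of the distal lung, read 215 on the double-high, 70.4 on the E-only, 117 on the CD133-only and 83.1 on the double-low array, and its other probe set pointed the other way. Of 41 measured cell cycle genes 3 were higher (7.32%) and 1 lower (2.44%), with a median of -0.13. These 2 shares were close to those of all measured genes.

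**Figure D4:**
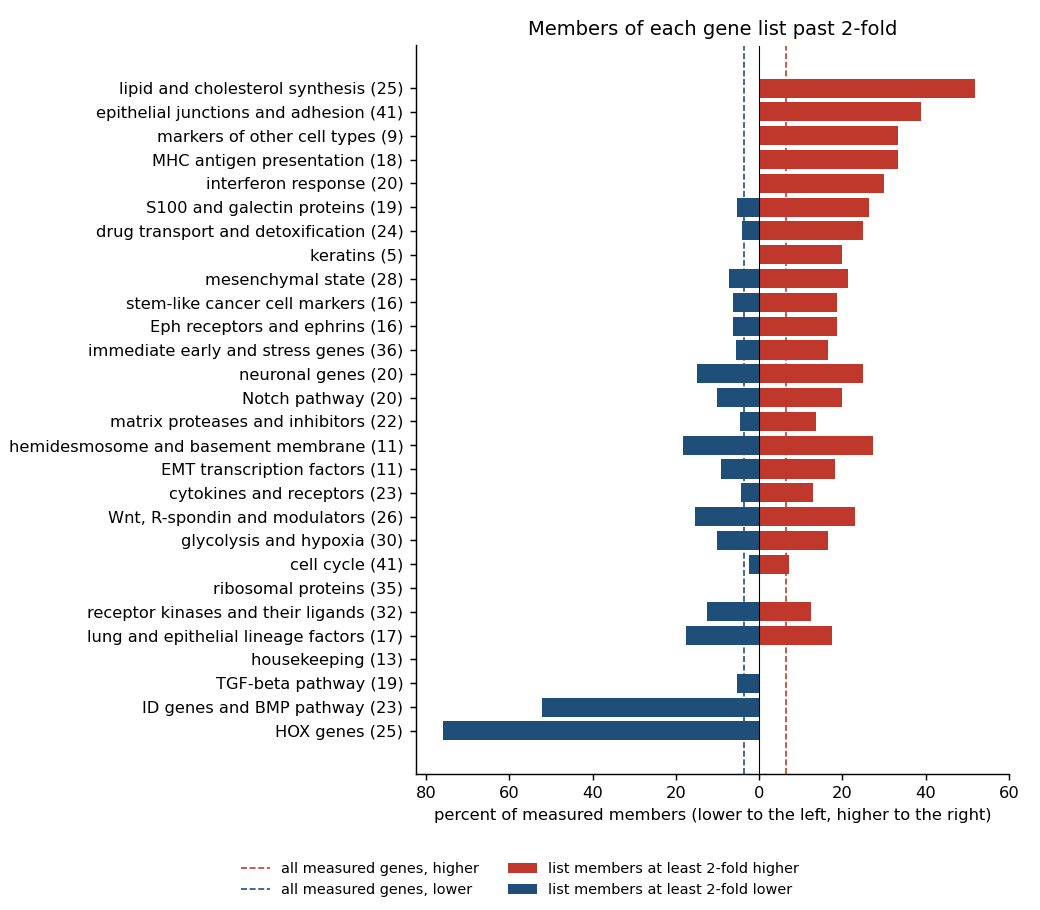
Share of the measured members of each of 28 gene lists (number of measured members in brackets) at least 2-fold higher (right) or lower (left) in double-high than in double-low cells, in percent. Dashed lines mark the shares over all measured genes, 6.51% higher and 3.62% lower. Lipid and cholesterol synthesis reaches 52.0% higher and HOX genes 76.0% lower.

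Some of the different genes were neighbours in the genome. In RefSeq gene order 14064 measured genes could be placed. A run was at least 3 adjacent measured genes past 2-fold the same way. Higher genes formed 21 runs, with 66 genes and at most 4 in a run. Lower genes formed 7 runs, with 32 genes and up to 9 in a run. Antisense and divergent transcripts were counted as genes, such as JMJD1C-AS1 beside JMJD1C and TOX-DT beside TOX. The number of runs to be expected without any grouping was not estimated. The run of 9 lay in the HOXB cluster and reached HOXB3 at one end and HOXB9 at the other. It included MIR10A and HOXB-AS3, and all 9 followed CD133. A run of 6 lower genes ended in the HOXA cluster, with SKAP2 and HOXA2 at log2 ratios of -3.40 and, as a bound, -3.88, and HOXD and HOXC held runs of 5, 3 and 3. Outside the HOX clusters, MCOLN3 and SYDE2 lay next to MCOLN2, at -5.37, -4.15 and -1.03. Among higher runs, CALCRL, a receptor of the adrenomedullin family, and TFPI, an inhibitor of coagulation, lay side by side at 3.29 and 3.25. ROBO2 and ROBO1, receptors of SLIT guidance proteins, were neighbours at 3.49 and 1.38. NOTCH4 lay beside HLA-DRB6, HLA-DRB1 and HLA-DQB1 in the same run. The genes of this paragraph were picked after their values were seen.

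For 75 of the 155 named genes past 2-fold another probe set of the gene also lay above the floor. Of these 130 other probe sets, 72 moved the same way by at least 2-fold and 35 the same way by less. The other 23 had a floored ratio of the opposite sign. The 23 belonged to AKAP12, CCND2, CDH1, ERBB4, GSTM1, ITGB4, NKX2-1, OSBPL10, PRDM16, SEL1L3, TCF3, TFPI2 and ZIC1.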

How the data were processed

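Total RNA of 4 sorted PC14 populations was measured on 1 one-colour Affymetrix array each. The deposited values are a linear intensity per probe set. The submitters' processing notes name MAS5, without its version. The trimmed mean of the deposited intensities (2% off either end) was 500.1 on every array, which shows a scaling within arrays. The table held 54675 probe sets, 62 of them controls. By the platform annotation 41097 had 1 gene symbol, 1801 several and 11777 none, and 41043 matched RefSeq (GRCh38.p14), which also gave the gene order and promoters.

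A gene was its probe set with 1 symbol and the highest mean log2 signal. Signals below the 50th percentile of the non-control probe sets of an array were set to it, and log2 ratios were taken between arrays. A difference of at least 2-fold was counted. Nothing was left out among the arrays, and samples were grouped by their titles. Members and lists were chosen with earlier results of these data known. Named are CDH1 and PROM1, the 12 highest and 12 lowest genes, up to 6 per class and direction, 8 cancelling genes and up to 4 members per direction of each list; every other gene was chosen after its values were seen. The procedure was tested on simulated data, with changes well past 2-fold planted in bright genes only. That test does not cover dim genes near the floor or ratios near 2-fold. Alternatives were other normalizations, floors, fold thresholds, probe-set rules and a limma fit. Tools were R 4.3.3 with limma 3.58.1, and Python 3.11.15 with matplotlib 3.10.9, pandas 2.3.3, scipy 1.17.1 and numpy 2.4.6.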

Additional observations from a re-analysis of the deposited data

Results flagged for a closer look

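Within the comparison 3 named genes moved in opposite directions with the same marker, by at least 2-fold each way; with 1 array per population the difference between the pairs was not tested.

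TFPI2, an inhibitor of serine proteases, read 121 on the double-high, 1251 on the E-only, 14974 on the CD133-only and 35.6 on the double-low array. The double-high over E-only log2 ratio was -3.37 and the CD133-only over double-low one at least 8.04. Across E-cadherin, the double-high over CD133-only log2 ratio was -6.95 and the E-only over double-low one at least 4.45. A second TFPI2 probe set read 54.9 on the double-high, 513 on the E-only, 10331 on the CD133-only and 57.8 on the double-low array.

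OLR1, a scavenger receptor for oxidised lipoproteins, read 62.2 on the double-high, 824 on the E-only, 1381 on the CD133-only and 405 on the double-low array. The double-high over E-only log2 ratio was -3.73 and the CD133-only over double-low one 1.77. The double-high over CD133-only log2 ratio was -4.47 and the E-only over double-low one 1.02.

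PDE3A, a cyclic nucleotide phosphodiesterase, read 243 on the double-high, 270.1 on the E-only, 1300.2 on the CD133-only and 50.5 on the double-low array. The double-high over CD133-only log2 ratio was -2.42 and the E-only over double-low one at least 2.24. The lower limits for TFPI2 and PDE3A stand where the double-low array lay below the floor.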

How the results depend on the processing

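No paired analysis was possible because each population has 1 array, and for the same reason no array could be left out in turn. The counts of the report depended most on the floor and the fold threshold. Results are given in the order higher, lower, following E-cadherin, following CD133, following both, apart on the double-high array, apart on the double-low array, no rule met, cancelling, E-cadherin side and CD133 side. With no floor they were 2687, 2657, 810, 1188, 112, 981, 1028, 1225, 103, 1102 and 1543. With the floor at the 25th percentile they were 1862, 1782, 434, 781, 38, 541, 620, 1230, 33, 491 and 927. At 1.5-fold they were 2008, 1545, 305, 1119, 77, 330, 532, 1190, 46, 362 and 1339, and at 3-fold 317, 181, 23, 136, 3, 23, 35, 278, 1, 25 and 137. With the floor at the 65th percentile, 292 genes were lower, 54 followed E-cadherin, 11 followed both, 56 and 81 stood apart on the double-high and double-low arrays, 7 cancelled, and 58 and 302 lay on the E-cadherin and CD133 sides. With the mean over the probe sets of a gene, 9 genes followed both markers and 7 cancelled. The limma fit called 1 gene higher and 1 lower.

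Higher genes were 64.3% of those past 2-fold, 71.5% with equal array medians, 50.3% with no floor and 51.1% with the floor at the 25th percentile. Quantile normalization and equal medians moved none of the 11 counts by over 1.5 times. Nor did keeping only genes above the floor on all 4 arrays, a setting chosen after seeing the data and run for the higher, lower, E-cadherin side and CD133 side counts. With the mean over probe sets the log2 ratio turned for COL4A6 (-0.062), NKX2-1 (-0.042), SERPINE2 (0.011) and TCF3 (-0.15). It changed by at least 0.5 for a further 79 of the 164 named genes and by less for 81. With the floor at the 65th percentile it changed by at least 0.5 for 66 named genes. Without shared probe sets the log2 ratio turned for OSBPL10 (-0.45, a bound), PRDM16 (-0.89), TCF3 (-0.25) and TFPI2 (-0.075). The cause was not tested. Signals near the floor limit the ratios of dim genes.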

Other observations

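Ligands, receptors and modulators of the Wnt pathway moved in both directions. Of 26 measured members 6 were higher (23.1%) and 4 lower (15.4%) in double-high cells, with a median log2 ratio of 0.12. The shares over all measured genes were 6.51% and 3.62%. The secreted modulator DKK3 read 2413 on the double-high, 490.1 on the E-only, 1428 on the CD133-only and 261 on the double-low array. The receptor FZD4 read 1077 on the double-high, 539 on the E-only, 418 on the CD133-only and 288 on the double-low array, and the ligand WNT5A read 729 on the double-high, 1066 on the E-only, 1204 on the CD133-only and 1830.5 on the double-low array. Of 20 measured Notch pathway genes 4 were higher and 2 lower. The ligand DLL1 read 578 on the double-high, 141 on the E-only, 366 on the CD133-only and 128 on the double-low array, and JAG1, another ligand, read 392 on the double-high, 672 on the E-only, 389 on the CD133-only and 1029.9 on the double-low array, so that the 2 ligands went in opposite directions.

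For each list of this paragraph, the shares over all measured genes were 6.51% higher and 3.62% lower. Of 16 measured Eph receptors and ephrins 3 were higher (18.75%) and 1 lower (6.25%). EPHA3, a receptor of guidance signals, read 753 on the double-high, 4.72 on the E-only, 257 on the CD133-only and 5 on the double-low array, and was detected above the floor on both CD133-high arrays alone. Of 20 measured neuronal genes 5 were higher (25%) and 3 lower (15%). SNAP25, a protein of synaptic vesicle release, read 573 on the double-high, 99.4 on the E-only, 1300.2 on the CD133-only and 137 on the double-low array, and PNMA2 read 1460.3 on the double-high, 84.2 on the E-only, 1954 on the CD133-only and 182 on the double-low array. Of 32 receptor kinases and their ligands 4 were higher and 4 lower (12.5% each). HBEGF, a ligand of the EGF receptor, read 872 on the double-high, 8016 on the E-only, 366 on the CD133-only and 2754 on the double-low array, with the E-only array the brightest. Among 36 immediate early and stress genes 6 were higher (16.7%) and 2 lower (5.56%). The 2 were CCN1 and CCN2, matricellular proteins, 6.81-fold lower and 3.83-fold lower. Among 30 glycolysis and hypoxia genes 5 were higher (16.7%) and 3 lower (10%). ADM, the peptide adrenomedullin, read 364 on the double-high, 1875 on the E-only, 534 on the CD133-only and 4417 on the double-low array. Of 22 matrix proteases and inhibitors 3 were higher and 1 lower, and of 23 cytokines and receptors 3 were higher and 1 lower.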
